A study of Mus musculus with 6 samples.

Results

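The chaperone and protein folding genes were the genes whose symbol in the platform annotation belongs to the Hsp, Dnaj, Cct, Pdia, Fkbp, Bag or Plod families, to the cyclophilins Ppia to Ppih, or to a short list with Tcp1, Calr and Sel1l. The rule looked at symbols and not at values. It found 61 of the 8734 probes, which gave 48 genes among the 6807 rows (single genes, or probes without a single symbol) that entered the fit. All 48 genes passed the filter of values on at least 4 of 6 arrays. The rule also took 4 genes that are not folding factors or work outside the folding step: Hspb11, an intraflagellar transport protein named for its sequence, Dnajc27, a small GTPase with a J domain, and the lysyl hydroxylases Plod1 and Plod3, which modify collagen chains. Other well-known members of the field, among them Hspa5, the Hsp90 genes, Canx, P4hb, Serpinh1, Hspa8 and Hspb1, were not analysed here.

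The samples were 6 two-colour arrays, on each of which RNA of airway smooth muscle cells from mice that overexpress the β2-adrenergic receptor (labelled 2AR-OE or TG+) competed with RNA of cells from nontransgenic mice (NTG). Both kinds of cells were grown out of tracheal pieces in medium with 20% serum and taken between passages 8 and 10, and no treatment is named in the labels. Transgenic RNA carried Cy5 and nontransgenic RNA Cy3 on 4 arrays (1A, 1B, 2A, 2B), and the dyes were the other way round on 1C and 2C. Arrays that share a number are called set 1 and set 2 here; the labels do not say what the number stands for, nor whether each array had its own culture or animal. The spread behind each p-value is therefore one between arrays and may be technical. The promoter of the transgene, the strain and the age of the mice are not stated in the sources used here.

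Every value is a log2 ratio that likely reads transgenic over nontransgenic, and "higher" means higher in transgenic cells. This direction rests on the transgenic RNA being in Cy5, the first channel, on the 4 arrays of the majority orientation. The titles of these arrays name the nontransgenic RNA first, and if the ratio is the reverse, all signs turn. The columns of 1C and 2C were taken as already turned to the same direction; if they were not, the calls below hold a dye bias and the dye term holds the effect of the transgene. By the labels, over 90% of such cultured cells stained for smooth muscle actin. A ratio gives no level, so the arrays themselves do not show whether markers were expressed. Of the marker genes measured, 1 of 3 for smooth muscle passed the test (Cnn1, 0.59 ± 0.10, adjusted p = 0.028), as did 1 of 4 for fibroblasts (Thy1, 2.73 ± 0.21, adjusted p = 0.00411), 1 of 2 for epithelium (Cdh1, 0.32, adjusted p = 0.0333) and 1 of 3 for cartilage (Col11a1, -1.10, adjusted p = 0.00411). The lists did not go one way: Smtn and Cald1 of smooth muscle were at -0.05 and -0.12, and Pdgfra, Lum and Col1a1 of fibroblasts at -0.02, 0.70 and -1.21, with adjusted p from 0.0622 upward. Krt19 of epithelium was at 0.06, and Acan and Sox9 of cartilage at -0.29 and -0.01. Of all rows fitted, 7.11% passed the test, and none of the 3 macrophage and 2 endothelial markers did, with adjusted p from 0.0957 upward. Their part in the results below was not tested. In bulk cultures, fewer cells of a type and less RNA per cell cannot be told apart.

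Molecular chaperones bind unfolded protein chains and let them fold or pass them on. HSP70 proteins do this in cycles that J-domain proteins start and nucleotide exchange factors such as BAG proteins end, the ring-shaped chaperonins enclose actin and tubulin in the cytosol (CCT) or imported proteins in mitochondria (HSP60), and small heat shock proteins hold unfolded chains and are abundant in muscle. In the endoplasmic reticulum, calreticulin and protein disulfide isomerases fold secreted and membrane proteins, FK506-binding proteins and cyclophilins turn proline bonds, and chains that fail are sent out for degradation. An overexpressed receptor with several membrane spans and the collagens of smooth muscle cells are both made there. Heat shock factors switch on the cytosolic genes through the heat shock element, and the unfolded protein response acts on those of the endoplasmic reticulum through the ER stress element.

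Promoters of members in which these elements lie are shown because they tell which members carry a binding motif of either stress pathway. RefSeq windows on GRCm38.p6, from 250 bases before to 50 after a start site, were found for 39 of the 48 members (49 windows). Each line gives the 250 bases before the start, 5′ to 3′ on the strand of the gene, with any motif in capitals. The ER stress element, searched as CCAAT and CCACG with 9 bases between them on both strands, lay in Calr, at chr8:84846932-84847181 (minus strand), in reverse orientation, and in Dnajc3, at chr14:118937682-118937931 (plus strand). The heat shock element, searched as GAA, TTC and GAA or TTC, GAA and TTC with 2 bases between units on both strands, lay in Hspd1, at chr1:55087933-55088182 (minus strand), where both forms overlap, and in Dnajb6, at chr5:29735648-29735897 (plus strand).
Calr: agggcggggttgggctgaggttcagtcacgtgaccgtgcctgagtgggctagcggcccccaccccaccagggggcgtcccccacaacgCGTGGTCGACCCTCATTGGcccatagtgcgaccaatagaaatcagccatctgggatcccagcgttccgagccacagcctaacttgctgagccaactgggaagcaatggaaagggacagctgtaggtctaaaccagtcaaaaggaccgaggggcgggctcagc
Dnajc3: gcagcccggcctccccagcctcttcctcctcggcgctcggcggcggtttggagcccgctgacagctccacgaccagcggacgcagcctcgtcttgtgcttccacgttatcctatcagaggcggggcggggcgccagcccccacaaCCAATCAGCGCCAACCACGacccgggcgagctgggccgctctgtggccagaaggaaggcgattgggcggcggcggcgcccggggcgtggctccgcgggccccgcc
Hspd1: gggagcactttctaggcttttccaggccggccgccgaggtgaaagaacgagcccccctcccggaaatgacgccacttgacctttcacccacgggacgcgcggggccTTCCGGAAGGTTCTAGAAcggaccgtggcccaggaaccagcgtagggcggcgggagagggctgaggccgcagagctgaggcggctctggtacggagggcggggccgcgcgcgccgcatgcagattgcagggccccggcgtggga
Dnajb6: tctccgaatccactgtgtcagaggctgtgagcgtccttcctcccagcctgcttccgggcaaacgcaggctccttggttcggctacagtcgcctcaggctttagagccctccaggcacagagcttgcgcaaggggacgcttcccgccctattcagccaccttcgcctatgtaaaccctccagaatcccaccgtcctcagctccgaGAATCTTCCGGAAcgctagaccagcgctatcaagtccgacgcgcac
These 2 members with an ER stress element are 5.13% of the 39, against 0.137% of 27025 genes with a window, and the 2 with a heat shock element are 5.13% against 0.662%. The element TGACGTGG, another sequence of the unfolded protein response, lay in 0 members and in 0.714% of genes, which says only that these letters are not in these windows. The cyclic AMP response element TGACGTCA, the motif of the pathway that the β2-adrenergic receptor feeds, lay in the window of Dnajc27 (2.56% of members against 2.03% of genes). A match is a description of sequence, not of binding. None of the 5 genes with a motif passed the test: their fitted log2 ratios were -0.19 for Calr, -0.20 for Dnajc3, -0.25 for Hspd1, -0.11 for Dnajb6 and 0.01 for Dnajc27.

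The members that passed the test were Fkbp2, Sel1l and Hspb2, each read by 1 probe. Fkbp2 and Sel1l, both of the endoplasmic reticulum, were higher in transgenic cells, and Hspb2, a small heat shock protein of muscle, was lower. Of the members, 3 of 48 (6.25%) had an adjusted p under 0.05 in limma's fit, against 484 of 6807 rows (7.11%). In detail, 2 members (4.17%) were higher, where the background was 4.03%, and 1 (2.08%) was lower, where it was 3.09%. The members' shares thus lay near those of all rows. Their number depends on single arrays: 0 passed without 2B or without 1C, 1 without 1A or without 2A, and 8 without 2C. The share of all rows moved in the same way, to 2.57% without 2B, 2.79% without 1C, 3.68% without 1A and 2.49% without 2A, and to 24.9% without 2C, where the members had 17.0%. No member was beyond 2-fold, which 154 rows were. Members had a median log2 ratio of -0.08, with 20 above and 28 below 0, against 0.002 for all rows. Their median size was 0.19, against 0.17 for all rows.

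**Figure D1:**
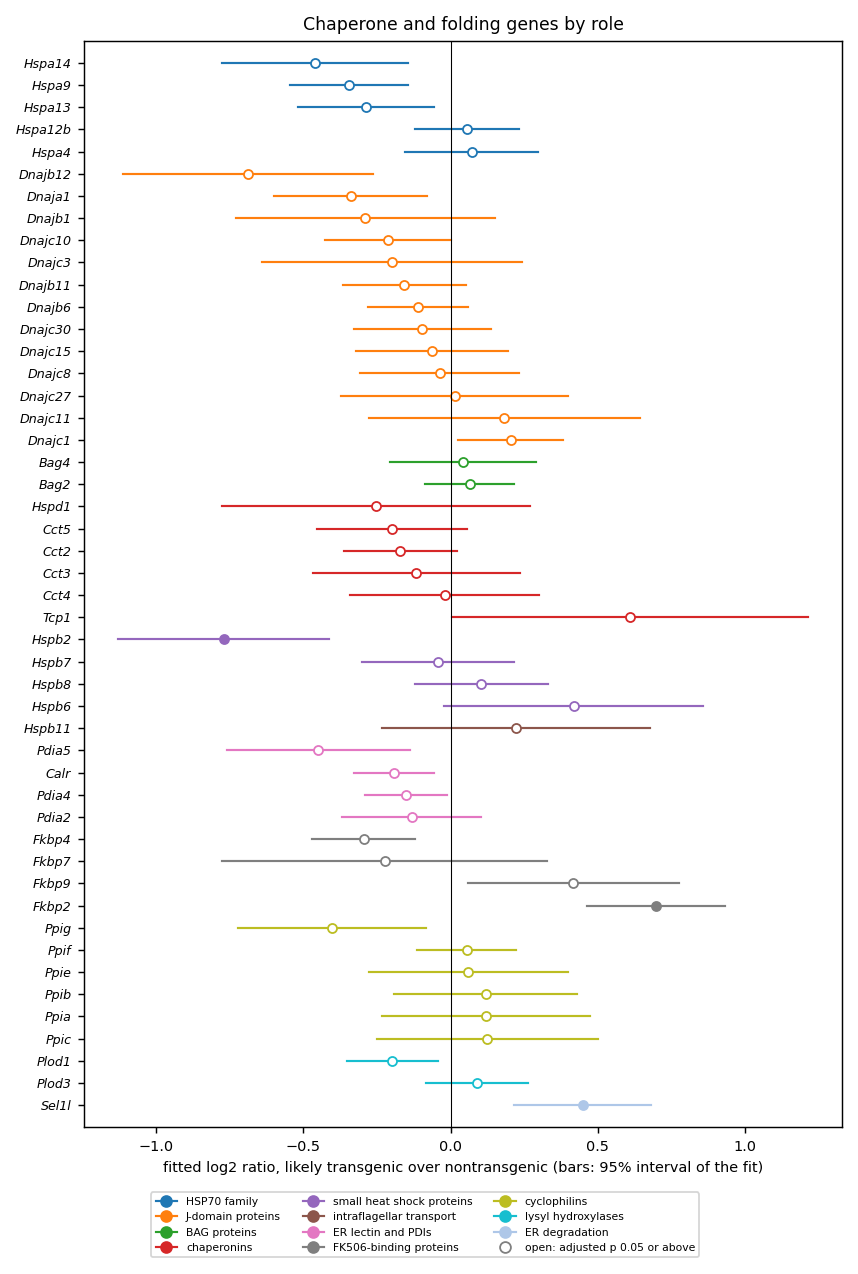
Fitted log2 ratio of the 48 members, likely transgenic over nontransgenic (horizontal axis), 1 row per gene, coloured by role, with bars for the 95% interval of limma's fit over 6 arrays (5 for Hspd1). Filled points, Fkbp2, Sel1l and Hspb2, passed the adjusted p of 0.05; the 45 open points run from -0.69 (Dnajb12) to 0.61 (Tcp1).

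Fkbp2 encodes FKBP13, a proline isomerase kept in the endoplasmic reticulum. Its log2 ratio was 0.81 on 1A, 0.88 on 1B, 0.42 on 2A and 0.59 on 2B, and on the swapped arrays 0.90 on 1C and 0.54 on 2C. All arrays lay above 0, the orientations overlapped, and every array of set 1 lay above every array of set 2. The fit gave 0.70 ± 0.10 (SE, n = 6 arrays), a 1.62-fold higher level with an adjusted p of 0.014 (limma). With a set term the ratio was 0.87 in set 1 and 0.52 in set 2. Without 2B the adjusted p was 0.0506 at 0.71, and without 1C it was 0.0676 at 0.61.

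Sel1l encodes the adaptor of the ubiquitin ligase that clears misfolded proteins from the endoplasmic reticulum. It read 0.11 on 1A, 0.44 on 1B, 0.41 on 2A, 0.58 on 2B, 0.70 on 1C and 0.32 on 2C. The lowest and the highest value both belong to set 1, and neither sets nor orientations stood apart. The fit gave 0.45 ± 0.095 (1.36-fold, adjusted p = 0.0466), with 0.44 in set 1 and 0.46 in set 2. This call is just inside the threshold: leaving out 1A, 1B, 2A, 2B or 1C put the adjusted p between 0.0591 and 0.172, at ratios of 0.35 to 0.49, and it was kept without 2C.

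Hspb2 encodes a small heat shock protein of muscle that binds the myotonic dystrophy kinase. Its values were -0.35 on 1A, -1.32 on 1B, -0.74 on 2A, -0.41 on 2B, -0.87 on 1C and -0.80 on 2C. It lay below 0 on every array, but 1B was far lower than 1A of the same set and orientation. The fitted ratio was -0.77 ± 0.15 (1.70-fold lower, adjusted p = 0.0344), with -0.87 in set 1 and -0.67 in set 2. The call was lost without 1A, 2A, 2B or 1C, with adjusted p from 0.0579 to 0.133. Cryab, the αB-crystallin gene that lies head to head with Hspb2 in mammals, had -0.15 ± 0.15 (adjusted p = 0.526), with 0.37 and 0.25 on 1A and 1B and -0.07 to -0.46 on the others.

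**Figure D2:**
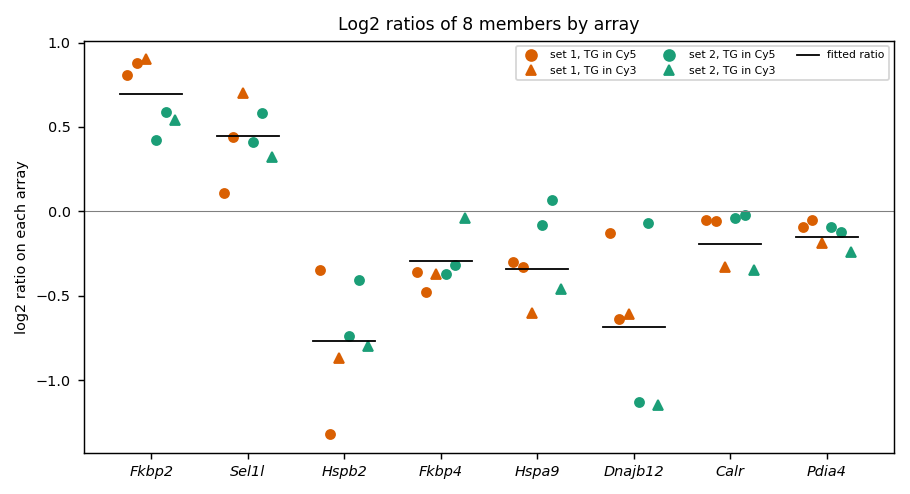
Log2 ratio (vertical axis) of 8 members on each of the 6 arrays; colour gives the set, circles mark transgenic RNA in Cy5, triangles in Cy3, and black lines are the fitted ratios. Fkbp2 and Sel1l lie above 0 and Hspb2 below 0 on all 6 arrays; the other 5 genes, picked after their values were seen, had adjusted p from 0.0646 to 0.158.

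Without adjustment, 5 members were higher at p under 0.05 (10.4%, background 14.1%) and 12 were lower (25%, background 13.6%). The 5 were Fkbp2, Sel1l, Fkbp9, Dnajc1 and Tcp1. The lower group had Hspb2, 3 of the 5 HSP70 genes, the J-domain genes Dnaja1 and Dnajb12, and, in the endoplasmic reticulum, Calr, Pdia4, Pdia5 and Plod1, together with Fkbp4 and Ppig. The difference between these shares was not tested, and the 14 of these 17 that are not called do not count as changed. Of the 47 members on all 6 arrays, 9 (19.1%) had the same sign on every array, against 19.7% of rows. Dnajc1, Fkbp2 and Sel1l were above 0 throughout, and Calr, Dnaja1, Dnajb12, Fkbp4, Hspb2 and Pdia4 below. For Dnajb12, Fkbp4 and Pdia4 this holds for the mean of their probes. No single probe of Dnajb12 or Fkbp4 was below 0 on all arrays, and a probe of Pdia4 read 0.04 on 1B.

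The HSP70 family gave 3 ratios below 0 and 2 near it. Hspa9, the HSP70 of mitochondria, read -0.30 on 1A, -0.33 on 1B, -0.08 on 2A, 0.07 on 2B, -0.60 on 1C and -0.46 on 2C. As means of 2 probes, both swapped arrays lay below all others, and set 1 below set 2 within each orientation. The probes did not share both orders: the first had 1C (-0.41) above 2C (-0.59), the other 2C (-0.32) above 1A (-0.37). The fitted ratio of Hspa9, -0.34 ± 0.08, had the lowest adjusted p of the uncalled members, 0.0646, and its separate probes gave -0.35 and -0.34. Hspa14, a ribosome-associated HSP70, had -0.57, -1.05, -1.08 and -1.04 on 1A, 1B, 2A and 2B, but -0.34 on 1C and 0.37 on 2C. The 4 arrays of the majority orientation lay below both swapped ones, and the fitted ratio was -0.46 ± 0.13 (adjusted p = 0.0893) beside a dye term of -0.47 ± 0.13 (unadjusted p = 0.0103, adjusted p = 0.19). Hspa13, an HSP70-like protein of microsomes, was within 0.08 of 0 on those 4 arrays and at -0.89 on 1C and -0.29 on 2C. The fit gave it -0.29 ± 0.09 (adjusted p = 0.122). Hspa4, an HSP110-type exchange factor, was at 0.07 ± 0.09 and Hspa12b, a distant member of endothelial cells, at 0.06 ± 0.07, with probes on either side of 0 for both.

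The 13 J-domain genes, whose products start the HSP70 cycle, had a median of -0.11, with 3 above 0 and none called. Dnajb12, which anchors HSP70 to the endoplasmic reticulum membrane, was lowest, at -0.69 ± 0.17 (adjusted p = 0.0729). Its arrays scattered, with -0.13 on 1A, -0.64 on 1B, -1.13 on 2A, -0.07 on 2B, -0.61 on 1C and -1.15 on 2C. The arrays 2A and 2B, of 1 set and orientation, thus differed by about a log2 unit, and 1A and 1B by less. On 2A, 1 probe read -2.36 and the other 0.10. In the fit the separate probes of Dnajb12 gave -0.48 and -0.89. Dnaja1, a partner of cytosolic HSP70, lay between -0.85 (1B) and -0.10 (1C) and at -0.34 ± 0.11 in the fit (adjusted p = 0.114). Dnajb1, the classic heat-inducible HSP40, was at -1.05 on 1A and -0.54 on 1C, while 1B, 2A and 2B read 0.04, 0.05 and -0.01 and 2C -0.13. The fit gave it -0.29 ± 0.18 (adjusted p = 0.335). Dnajc1, a J protein of the endoplasmic reticulum membrane, was the highest of the class at 0.20 ± 0.07 (adjusted p = 0.143), with arrays from 0.03 (2C) to 0.45 (2A).

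Other J proteins of the endoplasmic reticulum gave -0.16 ± 0.09 for Dnajb11, a partner of Hspa5, -0.21 ± 0.09 for Dnajc10, a disulfide reductase, and -0.20 ± 0.18 for Dnajc3, an inhibitor of the kinases that phosphorylate eIF2α. Dnajb11 was higher on all 4 arrays of the majority orientation (-0.08 to 0.38) than on 1C and 2C (-0.50 and -0.42). Dnajc3 was lower on all arrays of set 1 (-0.30, -0.26 and -0.96 on 1A, 1B and 1C) than on those of set 2 (0.30, 0.24 and 0.17 on 2A, 2B and 2C). Dnajc11, which belongs to a complex that shapes the inner membrane of mitochondria, had probes that disagreed. One gave -0.50 ± 0.16, the other 0.86 ± 0.37 with 3.07 on 1C, so the mean of 0.18 ± 0.19 describes neither. The remaining Dnajb6, Dnajc8, Dnajc15, Dnajc27 and Dnajc30 lay between -0.11 and 0.01. Of the exchange factors, Bag2 was at 0.07 ± 0.06 and Bag4 at 0.04 ± 0.10, with adjusted p of 0.514 and 0.81.

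Among the chaperonins, the CCT subunits Cct2, Cct3, Cct4 and Cct5 had similar values from array to array. Together they ranged from 0.15 to 0.41 on 1A, from 0.11 to 0.44 on 1B, from -0.26 to -0.21 on 2A, from -0.26 to -0.14 on 2B, from -0.38 to 0.17 on 1C and from -0.65 to -0.35 on 2C. As means of their probes they were thus above 0 on both majority arrays of set 1, below 0 on all arrays of set 2, and mixed on 1C. Cct2 is the mean of 2 probes that differ in this: one read 0.39, 0.31 and 0.08 in set 1 (1A, 1B, 1C) and -0.38, -0.31 and -0.72 in set 2 (2A, 2B, 2C), while the other read -0.60 on 1C and -0.10 to 0.03 elsewhere. The others have 1 probe each. Their fitted ratios ran from -0.20 (Cct5) to -0.02 (Cct4), with the lowest adjusted p at 0.22 for Cct2. Tcp1, the founding subunit of the same ring, stood apart: 0.19, -0.06, -0.34 and -0.28 on 1A, 1B, 2A and 2B, 2.26 on 1C and 0.42 on 2C. The single value on 1C lies far above the others, and the fitted 0.61 ± 0.25 had an adjusted p of 0.178. Across its rows 1C had an SD of 0.96, where the other arrays had 0.41 to 0.57.

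Hspd1, the HSP60 ring of mitochondria, was measured on 5 arrays, since 1C had no value. It read 0.87 on 1A, 0.45 on 1B, 1.49 on 2A and 0.76 on 2B but -1.40 on 2C. All 4 arrays of the majority orientation lay well above 0 and the single swapped array well below. The fit with a dye term gave -0.25 ± 0.20 (n = 5, adjusted p = 0.455) and a dye term of 1.15 ± 0.20 (unadjusted p = 0.00239, adjusted p = 0.171). Without the swapped arrays the ratio was 0.89 with an adjusted p of 0.0343, so its direction rests on 2C.

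The small heat shock proteins beside Hspb2 gave no call. Hspb6, a phosphorylated target of the cyclic AMP-dependent kinase in smooth muscle, read 0.85, 0.65 and 0.40 on 1A, 1B and 1C and -0.08, -0.28 and 0.70 on 2A, 2B and 2C. Set 1 was above 0 throughout and set 2 was split, and the fit gave 0.42 ± 0.18 (adjusted p = 0.197). Hspb8, which works with BAG proteins in clearing aggregates, was at 0.10 ± 0.09 and Hspb7, of heart and muscle, at -0.04 ± 0.11. Hspb11, by role a transport protein of cilia, had 0.75, 0.79 and 0.48 in set 1 and -0.17, 0.07 and -0.32 in set 2 (1A, 1B, 1C and 2A, 2B, 2C). No value of set 1 reached down to set 2, and the fitted 0.22 ± 0.19 had an adjusted p of 0.464.

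In the lumen of the endoplasmic reticulum, calreticulin and the disulfide isomerases all had ratios below 0, and none passed. Calr, the lectin chaperone that binds calcium, read -0.05, -0.06, -0.04 and -0.02 on 1A, 1B, 2A and 2B and -0.33 and -0.35 on 1C and 2C. The orientations did not overlap, with the swapped arrays farther from 0, and the fitted ratio was -0.19 ± 0.06 (adjusted p = 0.0964). Pdia4 (ERp72), as a mean of 2 probes, had a like split, -0.05 to -0.12 against -0.19 and -0.24, and a fitted -0.15 ± 0.06 (adjusted p = 0.158). Its probes differed in this: the first read -0.13 to -0.22 against -0.09 and -0.19, the other -0.05 to 0.04 against -0.28 and -0.29. Pdia5 was lowest, at -0.45 ± 0.13 (adjusted p = 0.0907), with -0.36 to -0.74 on 5 arrays and 0.08 on 2C. Pdia2, an isomerase of pancreas, was at -0.13 ± 0.10. The lysyl hydroxylase Plod1 was at -0.20 ± 0.06 (adjusted p = 0.118) and Plod3 at 0.09 ± 0.07.

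The remaining FK506-binding proteins did not follow Fkbp2 as a group. Fkbp9, another isomerase of the endoplasmic reticulum, read 0.85, 1.01 and 0.50 on 1A, 1B and 1C and 0.20, 0.38 and -0.05 on 2A, 2B and 2C. As for Fkbp2, every array of set 1 lay above every array of set 2, and the fit gave 0.42 ± 0.15 (adjusted p = 0.139). Fkbp4 (FKBP52), the HSP90 partner of steroid receptors, was at -0.29 ± 0.07 (adjusted p = 0.067). As a mean of 3 probes it was below 0 on all arrays, from -0.48 on 1B to -0.04 on 2C. No single probe was: the first read 0.10 and 0.12 on 1A and 1B, another 0.37 on 2C, and the last 0.04 and 0.02 on 2A and 2B. In the fit the 3 probes gave -0.41 to -0.08. Fkbp7 was at -0.22 ± 0.23, with 0.42 on 1A and -1.11 on 2B.

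Of the 6 cyclophilins, Ppia, Ppib, Ppic and Ppie shared a pattern by set. Ppia, the abundant cytosolic cyclophilin A often taken as a reference gene, read 0.45, 0.58 and 0.28 on 1A, 1B and 1C and -0.23, -0.13 and -0.13 on 2A, 2B and 2C. Ppib, the cyclophilin of the endoplasmic reticulum that serves collagen folding, had 0.58, 0.63 and 0.07 in set 1 and -0.04, -0.01 and -0.17 in set 2. In each of the 4 genes all values of set 1 lay above all values of set 2. Over all 6 arrays they therefore lay near 0, between 0.06 ± 0.14 (Ppie) and 0.12 ± 0.15 (Ppic), with adjusted p from 0.564 upward. The mitochondrial Ppif was at 0.06 ± 0.07. The nuclear Ppig was at -0.40 ± 0.13 (adjusted p = 0.119), from -0.80 on 1C to 0.13 on 2A.

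**Figure D3:**
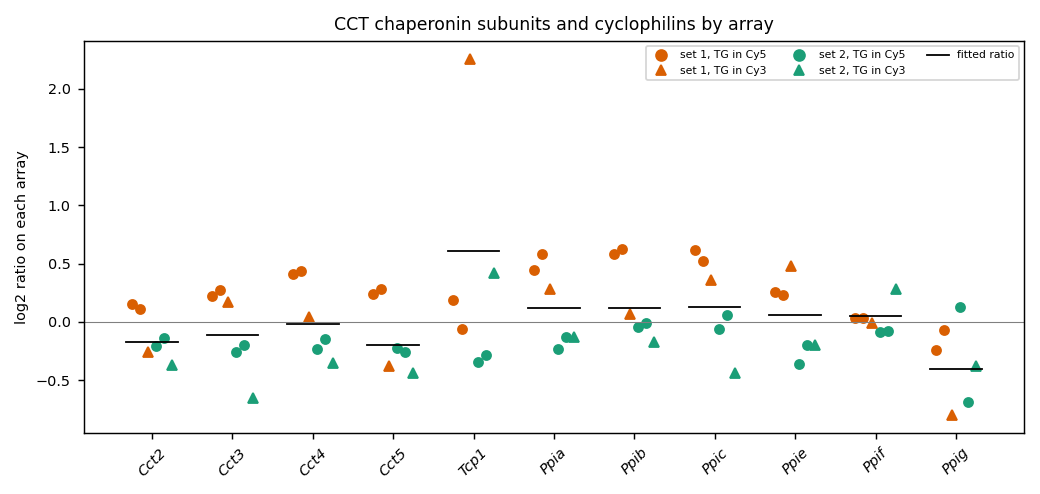
Log2 ratio (vertical axis) of 5 CCT subunits and 6 cyclophilins on each array; colour gives the set, circles mark transgenic RNA in Cy5, triangles in Cy3, and black lines are the fitted ratios. For Cct3, Cct4, Ppia, Ppib, Ppic and Ppie the 3 arrays of set 1 lie above the 3 of set 2; Tcp1 has 2.26 on array 1C.

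The ratios of some members differed between the sets before adjustment. With a set term in the fit, 20 of 48 members (41.7%) had an unadjusted p under 0.05 for the set, against 23.7% of rows. In 15 of them (31.2%, background 13.3%) set 1 was above set 2: Cct2, Cct3, Cct4, Cct5, Ppia, Ppib, Ppic, Ppie, Fkbp2, Fkbp9, Dnajc10, Dnajc11, Dnajc15, Hspb8 and Hspb11. In the other 5, Dnajc3, Dnajc8, Dnajc27, Hspa9 and Hspb7, set 2 was above set 1. None passed after adjustment over all rows, where limma called 0 rows for the set; the adjusted p of these 20 members ran from 0.0716 (Hspb11) to 0.204 (Cct2). For the 4 CCT subunits set 2 minus set 1 was -0.24 to -0.59, and for the 4 cyclophilins -0.50 to -0.65. Cct2, Dnajc11 and Hspa9 are means of 2 probes that differed in their order by set. A probe of Cct2 read -0.09 and -0.10 on 1A and 1B, below -0.03 and 0.03 on 2A and 2B. A probe of Dnajc11 was higher in set 1 on the majority arrays, but read -0.24 on 1C and 0.56 on 2C. A probe of Hspa9 had 1C (-0.41) above 2C (-0.59). Among members on all 6 arrays, 10 of 47 (21.3%) had every array of set 1 above every array of set 2, against 13.8% of rows. The reverse order held for 5 (10.6%, background 11.4%), all but Hspb7 J-domain genes: Dnajc3, Dnajc8, Dnajc27 and Dnajc30. Dnajc30 is the mean of 2 probes, neither of which had this order by itself. In 9 of 47 (19.1%) the sets lay on opposite sides of 0, against 7.12% of rows. The count of 15 was 9 without 2A, where 7.75% of rows had set 1 above set 2 at that unadjusted p. It was 19 without 1C or without 2C, where 18.3% and 18.4% of rows did. The medians of the members were -0.04 in set 1 and -0.17 in set 2, against 0.02 and -0.01 for all rows. At any p, set 1 was above set 2 in 25 of 48 members (52.1%), against 57% of rows. What differed between the sets is not stated in the labels and was not tested.

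**Figure D4:**
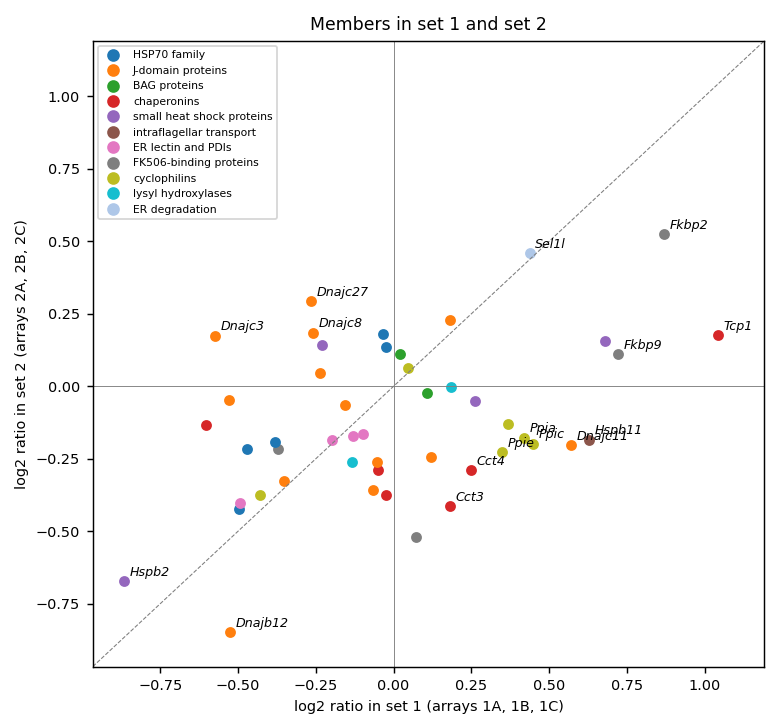
Log2 ratio of each member in set 1 (horizontal axis) and set 2 (vertical axis), from the fit with a set term, coloured by role; the dashed line marks equal values. Fkbp2, Sel1l and Hspb2 lie on the same side of 0 in both sets, while Ppia, Ppic, Ppie, Cct3 and Cct4 lie above 0 in set 1 and below 0 in set 2.

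The dye term had an unadjusted p under 0.05 for 9 of 48 members (18.8%), near the 18.2% of rows, and the lowest adjusted p was 0.171 (Hspd1), with 1 row called in all. All 4 arrays of the majority orientation lay above both swapped ones in 13 of 47 members (27.7%, background 16.9%), and below both in 4 (8.51%, background 14.6%). The orientations lay on opposite sides of 0 in 2 (4.26%, background 10.4%), Bag2 and Plod3. The 13 included Calr, Pdia4, Dnajb11, Hspa9 and Hspa13, and the 4 were Hspa12b, Hspa14, Dnajc11 and Tcp1. These orders hold for means of a gene's probes. Neither probe of Cct2 separated by orientation, nor did some probes of Hspa12b and a probe each of Pdia4, Hspa9 and Dnajc11. A probe of Plod3 was at 0.05 on 1C. Across the 48 members the mean ratios of both orientations correlated with r = 0.08, and with r = 0.28 without Hspd1, whose swapped value rests on 1 array. Across all rows r was 0.17; these are correlations across genes of the same arrays and carry no test. The median of the members was 0.12 on 1A, 0.07 on 1B, -0.06 on 2A and -0.02 on 2B, and -0.18 on both 1C and 2C.

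**Figure D5:**
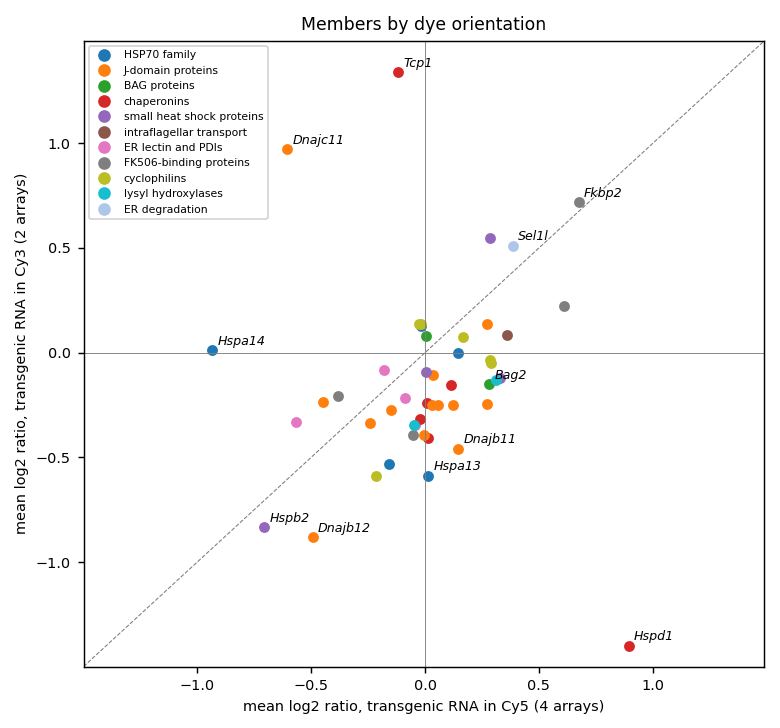
Mean log2 ratio of each member on the 4 majority arrays, transgenic in Cy5 (horizontal axis) and on the 2 swapped arrays (vertical axis; 1 array for Hspd1), coloured by role; the dashed line marks equal values. Fkbp2, Sel1l and Hspb2 lie near the line, while Hspd1, Tcp1, Dnajc11 and Hspa14 lie far from it.

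The genes around the members in the same pathways were described from fixed lists, with the same fit. Of all rows fitted, 7.11% passed, and each list had few measured genes. Of 24 genes of the unfolded protein response, 10 were measured and 0 passed in either direction, with a median of -0.04. Creld2, a secreted target of ATF6, came nearest: 0.73, 0.75, 0.34, 0.31, 0.44 and 0.21 on 1A, 1B, 2A, 2B, 1C and 2C, above 0 on all arrays, with 0.43 ± 0.10 in the fit (adjusted p = 0.056). Asns, an ATF4 target, was lowest at -0.30 ± 0.10 (adjusted p = 0.119). Of 25 genes of degradation from the endoplasmic reticulum 8 were measured, and Sel1l alone passed, with a median of -0.08. Of 29 genes of oxidative folding, glycan trimming and translocation 19 were measured and 0 passed, with a median of 0.02. Ssr3, a subunit of the translocon-associated complex, was lowest at -0.83 ± 0.20 (adjusted p = 0.0667), and Uggt1, the glucosyltransferase that senses misfolding, was highest at 0.71 ± 0.42 (adjusted p = 0.309), with 3.74 on 1C.

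Of 20 genes of collagen hydroxylation and assembly, 9 were measured, 1 rose and 2 fell. Lox, the enzyme that crosslinks collagen outside the cell, rose by 0.62 ± 0.09 (1.54-fold, adjusted p = 0.0179), above 0 on 6 of 6 arrays; the call was lost without 1B, 2A, 2B or 1C (adjusted p from 0.0511 to 0.0721). Bmp1, the protease that trims procollagen, was at -0.56 ± 0.07 (adjusted p = 0.00962), below 0 on 6 of 6 arrays and called without any 1 array. P3h1, a prolyl hydroxylase that works in a complex with cyclophilin B, was at -0.51 ± 0.10 (adjusted p = 0.0434), with -0.06 and 0.06 on 1A and 1B and -0.43 to -0.93 on the other 4 arrays. The call of P3h1 held without 2C but was lost without any 1 of the other 5 (adjusted p from 0.0636 to 0.169), and on the 4 majority arrays the ratio was -0.23 (adjusted p = 0.234). Of 29 heat shock factors and HSP90 or HSP70 partners, 7 were measured and 1 fell: Ptges3, the HSP90 cochaperone p23, at -0.40 ± 0.07 (adjusted p = 0.0305) and below 0 on 6 of 6 arrays. Its arrays ran from -0.04 on 1A to -0.74 on 1C, with both swapped arrays the lowest. This call, too, held without 2C but was lost without any 1 of the other 5 (adjusted p from 0.0608 to 0.109), and the 4 majority arrays gave -0.19 (adjusted p = 0.133). Of 15 prefoldin and tubulin folding genes, which deliver chains to CCT or act after it, 7 were measured and 0 passed. Pfdn5 had 1.30, 1.22 and 1.60 on 1A, 1B and 1C and 0.46, 0.68 and -0.02 on 2A, 2B and 2C. Its values in set 1 were all above those in set 2, as for the CCT subunits Cct3 and Cct4, and the fitted ratio was 0.85 ± 0.24 (adjusted p = 0.0922).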

How the data were processed

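Airway smooth muscle RNA of β2-adrenergic receptor transgenic and nontransgenic mice was compared on 6 two-colour arrays. The authors deposited 1 log2 ratio per probe and array; the background correction and normalization behind it (not given in the sources used here) could not be checked. The deposited values were centred near 0 on each array and had a floor at the log2 of a ratio of 0.01. Spot signals were not used; the number of arrays limits the precision. The platform annotation, which can be old, gave 1 gene symbol for 7540 of 8734 probes, several for 14 and none for 1180. Probes of a symbol were averaged per array, and rows needed values on at least 4 arrays and both orientations.

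limma 3.58.1 (R 4.3.3; lmFit, eBayes) fitted a transgenic and a dye coefficient over 6 arrays, tested first on simulated data, with Benjamini-Hochberg adjustment over 6807 rows; a further term gave the set difference. Errors are standard errors of this fit, and each call needs an adjusted p under 0.05. Members, lists and tests were chosen with earlier results of these data known. Genes outside the members were named where they passed, or were the extremes of their list; other members were named after their values were seen. Motifs were searched in RefSeq promoter windows (GRCm38.p6) with Python 3.11.15. Alternatives changed the dye term, the arrays, the sets, floors, probe averaging, filters, scaling, weights and variance moderation.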

Additional observations from a re-analysis of the deposited data

Results flagged for a closer look

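On the 4 arrays of the majority orientation (transgenic in Cy5), 1 array stood far from the other 3 for 2 members by Dixon's test. Dnajb1 was at -1.05 on 1A against -0.01 to 0.05, and Hspa14 at -0.57 on 1A against -1.08 to -1.04. Chance marks about 1 in 20 such groups, and 48 members were examined.

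For 9 members every array of one set lay above 0 and every array of the other set below 0 (19.1% of the 47 on all arrays, against 7.12% of rows). The fitted difference of set 2 minus set 1 was -0.59 for Cct3, -0.54 for Cct4, -0.60 for Ppia, -0.50 for Ppib and -0.58 for Ppie. It was 0.75 for Dnajc3, 0.28 for Dnajc30, 0.44 for Dnajc8 and 0.37 for Hspb7. Dnajc30 is the mean of 2 probes, and neither had its sets on opposite sides of 0 by itself. The set difference was tested with limma over all rows. The adjusted p of the 9 members ran from 0.0724 (Ppie) to 0.266 (Dnajc30), so none passed. Bag2 and Plod3 were above 0 on every majority array and below 0 on both swapped arrays (4.26% of members, against 10.4% of rows). For Plod3 this holds for the mean of its probes, of which a single probe read 0.05 on 1C. The dye terms of Bag2 and Plod3 were 0.21 ± 0.06 and 0.22 ± 0.07, with adjusted p of 0.203 and 0.217.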

How the results depend on the processing

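The 3 calls were the same genes without a dye term, with floor values missing, with the median of probes, with values on all 6 arrays or at least 3, with arrays centred again, with robust moderation and with probes tested singly. With the swapped columns turned in sign, 0 members and 1 row passed, the median of members was 0.13, and signs reversed for Fkbp2 (-0.022), Sel1l (-0.062), Hspb2 (0.065), Lox (-0.11), Bmp1 (0.13), P3h1 (0.28) and Ptges3 (0.21). On the 4 majority arrays alone, 5 members (2 higher, 3 lower) and 1049 rows passed, with Hspd1 at 0.89. Leaving out each array in turn gave 0 (2B, 1C) to 8 (2C) members, 0 to 3 higher, 0 to 5 lower, and 169 to 1689 rows. Set 1 alone gave 7 members (4 higher, 3 lower) and 1057 rows, and set 2 alone 9 (2 higher, 7 lower) and 907 rows. Array weights gave 0 members and 159 rows, and a common spread 4 members, 2 of them lower. The dye comparison went from 1 row to 0 with floor values missing. Set 1 lay above set 2, in alternatives added after seeing the data, for 9 (without 2A) to 19 (without 1C or 2C) members. The share of rows went from 7.75% without 2A to 18.3% without 1C and 18.4% without 2C. The causes were not tested.

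Over the 20 alternatives that kept the sign of the swapped columns, Fkbp2 lost its call in 3, Hspb2 in 8 and Sel1l in 10; none changed sign. With the set number as a random replicate block (correlation 0.295), 1 member (Fkbp2, higher; 0 lower) and 197 rows passed, and as a fixed replicate block 8 (3 higher, 5 lower) and 1168 rows. Deviations of same-numbered arrays from the orientation means correlated from -0.14 to 0.21, and the main fit did not pair arrays by number. Such deviations lean below 0 by construction (1C with 2C is at -1), so these values do not show that same-numbered arrays were independent. In these deviations every array correlated best with one of its own number. In the ratios, 1A with 1B (0.545) and 2A with 2B (0.674) lay above the 0.365 to 0.424 between numbers in that orientation. The swapped 1C and 2C, of different numbers, correlated best with each other (0.313). The arrays' number, and 1C with an SD of 0.96 over its rows, limit the precision.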
